A study of Mus musculus with 37 samples.

Results

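Loss of BAP1 from the growing mouse oocyte left 196 genes with low RNA at each of 3 successive stages, the fully grown oocyte (FGO), the ovulated MII egg and the late 1-cell embryo (L1C). They were chosen from 55401 genes, 15184 of which were abundant enough to be tested, by 1 rule. On the log2(FPKM + 1) scale, where FPKM is the number of fragments scaled to gene length and library size, the knockout mean had to lie at least 1 below the control mean in FGO, in MII and in L1C. This limit was passed by 213 genes (1.4% of the genes tested), and 17 of them, Bap1 among them, were left out by name. The differences in FGO, MII and L1C therefore chose the genes and are given below as a description, without a test. Early 2-cell (E2C) and late 2-cell (L2C) embryos and embryos of embryonic day 6.5 played no part in the choice, and the tests below are on those libraries.

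Control oocytes and eggs came from Bap1 flox/flox females and knockout ones from females that also carried Gdf9-iCre, a recombinase made in the oocyte from the primordial follicle stage under the Gdf9 promoter. Both groups carried the floxed allele. The 1-cell and 2-cell embryos were fertilised by B6 sperm, and embryos of embryonic day 6.5 by PWK sperm, so the knockout was maternal and the embryo had a paternal Bap1 copy. FGO, MII, L1C and L2C had 2 control and 3 knockout libraries each, and E2C had 3 of each, all from total RNA. At embryonic day 6.5, poly(A) libraries covered epiblast (2 control and 2 knockout), visceral endoderm (2 and 2) and extraembryonic ectoderm (1 and 2). The age of the females and the number of cells or embryos in a library are not given in the sources used here, and the labels do not say whether libraries came from separate females, so p-values measure the spread between these libraries, which may be technical.

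BAP1 is a ubiquitin hydrolase. With an ASXL partner it forms the Polycomb repressive deubiquitinase, which removes ubiquitin from histone H2A and so works against Polycomb repressive complex 1, the enzyme that puts it there. The fully grown oocyte is transcriptionally silent, and the egg and zygote live on RNA stored during growth. In the mouse most of that RNA is degraded by the end of the 2-cell stage, when the embryo's own genome becomes broadly active, so a gene lost from the oocyte can be restored only by new transcription after fertilisation.

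The targeted gene matched its labels. Bap1 was between 16.3 and 29.9 FPKM in the control total RNA libraries, between 3.76 and 7.05 FPKM in the knockout libraries from FGO to E2C, and between 9.69 and 11.7 FPKM in knockout L2C. Of 19 oocyte markers found, 18 or 19 reached 1 FPKM in each group of total RNA libraries. Of 22 genes on a granulosa and cumulus list, 15 stayed below 1 FPKM in all 26 libraries, and 3 to 6 reached it in each group. Those staying below included 13 picked from the list, among them Amh, Fshr and Foxl2 (highest value 0.969 FPKM, Inha). The summed level of that list was lower in the knockout, at 41.2 to 42.6 FPKM in control FGO against 28.7 to 32.0, 29.0 to 32.2 in control E2C against 20.6 to 21.8, and 58.0 to 61.8 in control L2C against 30.0 to 42.9. Cyp19a1, which passed the limit and was left out by name, is on that list, and the list's part in the results was not tested. Depth cannot be recovered from FPKM, so no counting intervals are given. The libraries are bulk, and fewer cells of a type and less RNA per cell cannot be told apart.

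The genes encoded varied products. By annotation 134 were protein coding, 40 were long non-coding RNAs of several classes and 22 were pseudogenes. Protein coding genes made up 68.4% of them, against 85.4% of the 11083 background genes with a control mean of at least 1 FPKM over FGO, MII and L1C. Grouped by product after the genes were known, the coding genes comprised 28 membrane receptors, adhesion and surface proteins (such as Egfr, Cd36, Cdh2, Mrc1 and Il23r), 26 proteins of signalling, membrane traffic, cytoskeleton or protein turnover (such as Plek, Map2k6 and Nedd4l), and 24 metabolic enzymes or transporters (such as Lpl, Cth and Aldh1a2). A further 14 were nuclear or RNA-binding proteins (such as Dppa4, Hmgn5 and Obox7), 6 were grouped as secreted proteins or inhibitors, and 36 fell in none of these groups. None of the genes was on the lists of the deubiquitinase complex, Polycomb complexes, cytokine receptor and JAK-STAT signalling, steroid synthesis, meiotic arrest, egg activation, Wnt or TGF-beta signalling. These lists held 9 to 29 tested genes each. As only 1.4% of all genes tested passed the limit, finding none says little about these pathways. The lists of the deubiquitinase complex, cytokine receptors and steroid synthesis each held 1 gene that passed the limit and was left out by name (Bap1, Prlr and Cyp19a1), and Il23r, itself a cytokine receptor subunit, was not on the list used. Of 20 oocyte markers listed, such as zona pellucida and secreted oocyte factors, 18 were tested and none was among the 196. With so short a list this too says little. Sohlh2, which is among the 196, was not on that list, although Sohlh1 was.

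The coding genes were long. Their median gene length was 59038.5 bp, against 28076 bp for protein coding genes of the background, and 51 of 134 (38.1%) were over 100 kb, against 15.6%. Restricting the background to the 3283 genes whose control level lay between the quartiles of the 196 (2.99 and 9.94 FPKM) left its median at 27229.5 bp and its share over 100 kb at 15.9%. Chromosome 6 held 26 of the 196 genes (13.3%, against 5.01% of the background), chromosome 10 held 18 (9.18% against 4.94%) and chromosome X held 14 (7.14% against 3.28%). Of the 26 on chromosome 6, 10 are neighbouring pseudogenes in 1 stretch described below, whose counts are not independent. These are descriptions of a chosen set and carry no test.

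Their promoters were poor in CpG. RefSeq (GRCm38.p6) gave windows of 300 bases around an annotated start, most of each lying before it, for 128 of the genes (168 windows) and for 7986 background genes (10261 windows). A window was called CpG-rich where the CpG count was at least 0.6 of that expected from its bases and GC was at least 50%. By this definition 29.2% of the genes' windows were CpG-rich, against 65.7% of background windows and 63.6% of windows of background genes between the quartiles of level. The median window held 9 CpGs, against 20 in the background. The motif TATAAA, searched on both strands, was in 14.9% of the genes' windows and 7.6% of background windows, while CACGTG was in 8.93% and 9.93%, TGACGTCA in 4.76% and 3.18%, and TAATTA in 3.57% and 3.09%. A match is a description of these letters and not a binding site. Shown are 2 CpG-poor windows of genes that were nearly absent from every knockout library up to L2C, Il23r and Mrc1, and 2 CpG-rich windows of genes whose knockout RNA rose between E2C and L2C, Hmgn5 and Cdca7 (for Cdca7 the call was lost with libraries centred on their medians). Capitals mark each CG, and all 4 are written 5′ to 3′ on the gene's strand.
Il23r, chr6:67491806-67492105, minus strand, 2 CpGs: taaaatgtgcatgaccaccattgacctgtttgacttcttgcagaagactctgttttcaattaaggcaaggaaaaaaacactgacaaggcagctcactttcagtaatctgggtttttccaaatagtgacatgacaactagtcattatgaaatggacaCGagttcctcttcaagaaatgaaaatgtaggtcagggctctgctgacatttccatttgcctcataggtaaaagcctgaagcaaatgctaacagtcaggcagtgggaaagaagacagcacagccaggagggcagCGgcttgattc
Mrc1, chr2:14229164-14229463, plus strand, 3 CpGs: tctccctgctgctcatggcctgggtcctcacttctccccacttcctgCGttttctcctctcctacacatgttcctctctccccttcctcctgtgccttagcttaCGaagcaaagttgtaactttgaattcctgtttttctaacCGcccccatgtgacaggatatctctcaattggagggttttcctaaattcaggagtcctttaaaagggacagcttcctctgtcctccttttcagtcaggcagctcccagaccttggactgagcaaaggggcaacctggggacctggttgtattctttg
Hmgn5, chrX:109013331-109013630, minus strand, 23 CpGs: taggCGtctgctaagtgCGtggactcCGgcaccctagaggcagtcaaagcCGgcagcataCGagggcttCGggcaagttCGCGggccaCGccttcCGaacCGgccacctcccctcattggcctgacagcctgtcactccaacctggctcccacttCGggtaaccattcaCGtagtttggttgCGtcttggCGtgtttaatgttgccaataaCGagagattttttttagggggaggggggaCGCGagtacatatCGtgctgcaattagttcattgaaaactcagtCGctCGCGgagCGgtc
Cdca7, chr2:72475969-72476268, plus strand, 26 CpGs: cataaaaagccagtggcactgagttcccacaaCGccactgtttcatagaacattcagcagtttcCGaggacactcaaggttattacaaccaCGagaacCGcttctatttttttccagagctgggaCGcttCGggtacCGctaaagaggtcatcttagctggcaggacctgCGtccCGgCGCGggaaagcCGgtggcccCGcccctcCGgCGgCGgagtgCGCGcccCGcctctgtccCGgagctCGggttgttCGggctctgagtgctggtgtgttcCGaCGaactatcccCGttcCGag
Across the set, counts were similar with and without a CpG-rich window, and the difference was not tested. Of the 45 genes with a CpG-rich window, 28 were lower in knockout E2C, 21 in knockout L2C, and 4 rose in the knockout from E2C to L2C. Of the 83 with windows but none CpG-rich, the numbers were 51, 33 and 9.

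In the stages that chose them, the genes were depleted by a similar amount throughout. Their median control level was 4.43 FPKM in FGO, 4.69 in MII and 5.51 in L1C, and their median knockout level was 0.871, 0.815 and 0.99 FPKM. The knockout mean was a median of 18.4%, 18.8% and 18.5% of the control mean. In 195 of the 196 the knockout and control libraries did not overlap at any of the 3 stages, which the rule largely fixes, and 73 stayed under 1 FPKM in all 9 knockout libraries. The opposite pattern was rare, with 5 genes at least 1 higher on the log2 scale in all 3 stages. The limit falls in a continuum: Zc4h2 (-1.0003), Iqcf5 (-1.0014) and Tenm3 (-1.0017) lay just inside it at their weakest stage, and Cd1d1 (-0.997), Lemd1 (-0.992) and Prkg2 (-0.991) just outside. The size of the set depends on the scale, with 798 genes chosen at a pseudocount of 0.1 and 474 after TPM scaling. With each library centred on its median, only 162 of the 196 were chosen, and no others.

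**Figure D1:**
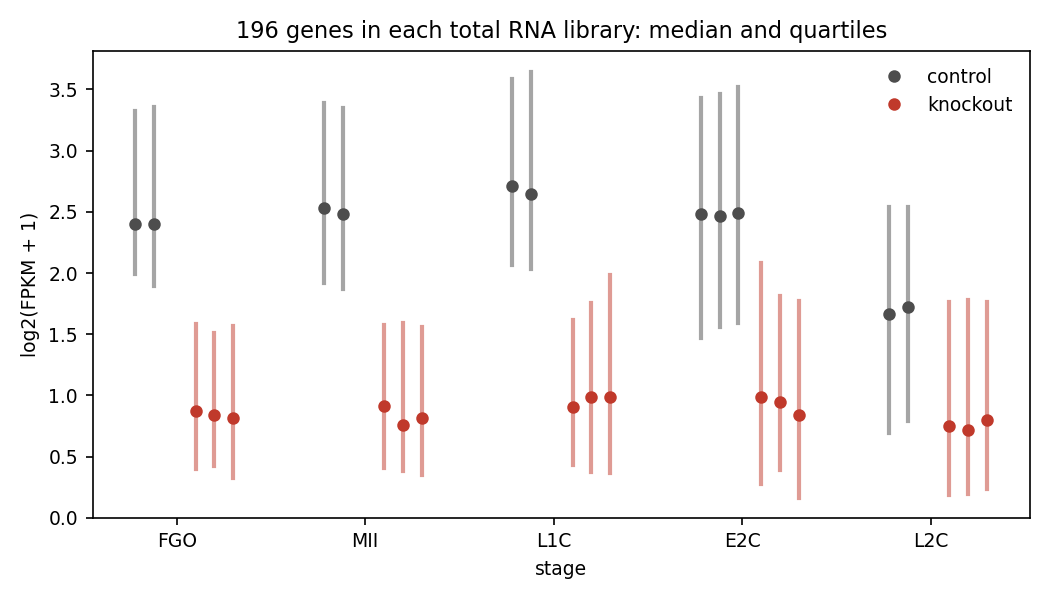
Level of the 196 genes in each of the 26 total RNA libraries, as log2(FPKM + 1) by stage: points are the median over genes of 1 library and bars run from the lower to the upper quartile, with control in grey and knockout in red. Control medians lie between 2.40 and 2.71 from FGO to E2C and at 1.66 and 1.73 in L2C, and knockout medians lie between 0.721 and 0.99 in all 5 stages.

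The first independent stage showed the same deficit. In E2C all 196 knockout means were below the control means, with a median difference of -1.37 on the log2 scale against 0 for all genes tested. At an adjusted p under 0.05, 121 of 196 genes were lower (61.7%, against 3.07% of all genes tested) and none was higher (against 1.83%). At an unadjusted p under 0.05 the numbers were 166 and 0, while 3700 of all 15184 genes tested passed it in either direction. In 161 genes each knockout library was below each control library (82.1%, against 15.1%). Among the 173 genes with a control mean of at least 1 FPKM, 119 were lower (68.8%, against 4.04%) and the knockout was a median of 21.6% of control. This limit was set on the control libraries of the test itself, also for the background share. It favours genes with a high control, so the share is a description and no further support. The count rests on all 6 libraries: it was between 30 and 56 when any 1 of them was left out, and 22 genes passed in each of those 6 fits. It was 21 with no filter on low values, where p-values are adjusted over more genes.

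In L2C the median difference was closer to 0, and fewer of the genes were lower. Of 196 genes 86 were lower in the knockout (43.9%, against 14.8% of all genes tested) and 4 were higher (2.04%, against 14.0%). The median difference was -0.63, against 0.03 for all genes tested. Of the rest, 54 were not called with a control mean of at least 1 FPKM, and 52 were not called with a control mean below it, where a loss could hardly be seen. Among the 135 genes that the control still held at 1 FPKM or more, 78 were lower (57.8%, against 18.9%) and the knockout was a median of 37.0% of control. Here too the limit was set on the control libraries of the test itself, so the higher share is a description only. It leaves out genes such as Chst7, with a mean of 0.45 FPKM in control and 1.35 in the knockout. For 35 of these 135 the knockout was under 20% of control, and for 24 it was at least 80%. Of those 24, 13 had a knockout mean above that of E2C, and 11 did not. Without control replicate 1 or without control replicate 2 the count of lower genes was 46, without knockout replicate 3 it was 55, and 35 genes passed in all 5 fits that left out 1 library. With no filter on low values it was 31. The summed level of the oocyte markers differed between the same groups, at 1174 to 1278 FPKM in control L2C and 1672 to 1787 FPKM in knockout L2C, with 11 of 18 tested markers higher and none lower, and its part in these results was not tested.

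**Figure D2:**
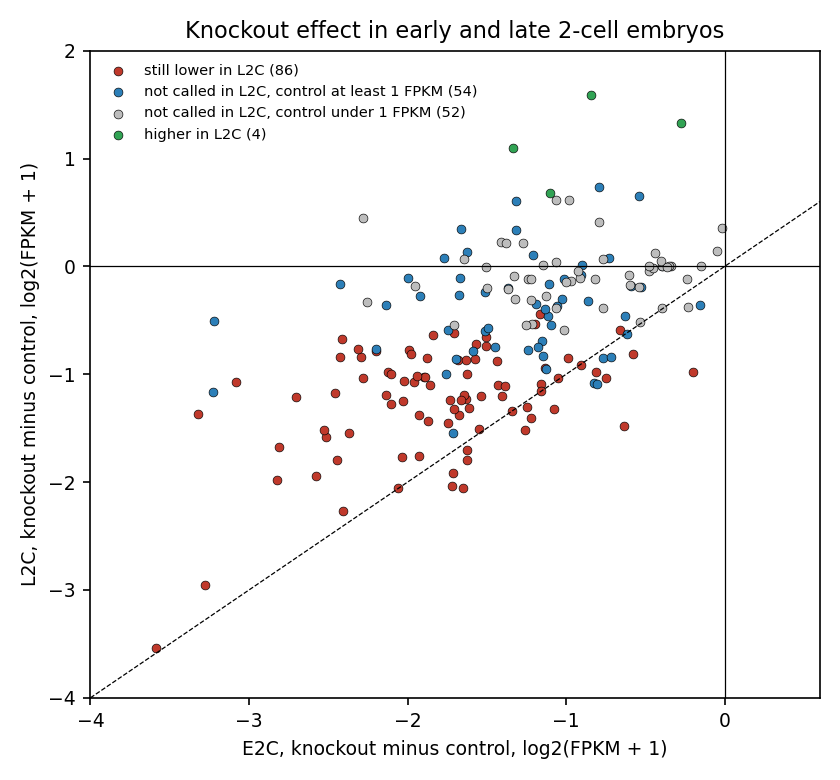
Knockout minus control for each of the 196 genes in E2C (x axis) and L2C (y axis), both on the log2(FPKM + 1) scale; colours give the outcome in L2C and the dashed line marks equal effects. All points lie left of 0, and most lie above the dashed line: 86 were still lower in L2C, 4 were higher and 106 were not called.

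Between E2C and L2C control RNA went down for more of the genes than knockout RNA went up. From E2C to L2C, 108 of the 196 genes fell in control embryos (55.1%, against 22.3% of all genes tested) and 5 rose (against 28.5%). In knockout embryos 25 fell (12.8%, against 18.4%) and 19 rose (9.69%, against 27.1%). With each library centred on its median, which moved the median change of all genes tested from 0.02 to -0.23 in control and from 0.06 to -0.24 in the knockout, 138 fell and 4 rose in control, and 53 fell and 11 rose in the knockout. The difference between the stages was tested directly as an interaction. It was positive, meaning a higher knockout effect in L2C on the log2(FPKM + 1) scale, for 57 genes (29.1%, against 7.96%) and negative for none (against 7.18%, and 2 at an unadjusted p under 0.05). At that unadjusted p, 4412 of all 15184 genes tested passed in either direction. For 49 of the 57 the control fell and the knockout did not rise, for 4 both happened, and for 4 the knockout rose without a called fall of the control. Of the 57, 19 were still lower in L2C, 35 were not called and 3 were higher. Leaving out L2C control replicate 1 or 2 gave 34 or 31 genes, and 27 passed in all 11 fits that left out 1 library. With a pseudocount of 0.1 the count was 32. On this scale the difference shrinks as a control falls toward 0, also where the ratio is kept: Cd200, a surface glycoprotein gene named after its values were seen, is among the 57 with the knockout at 3.07% of control in E2C and 3.31% in L2C.

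**Figure D3:**
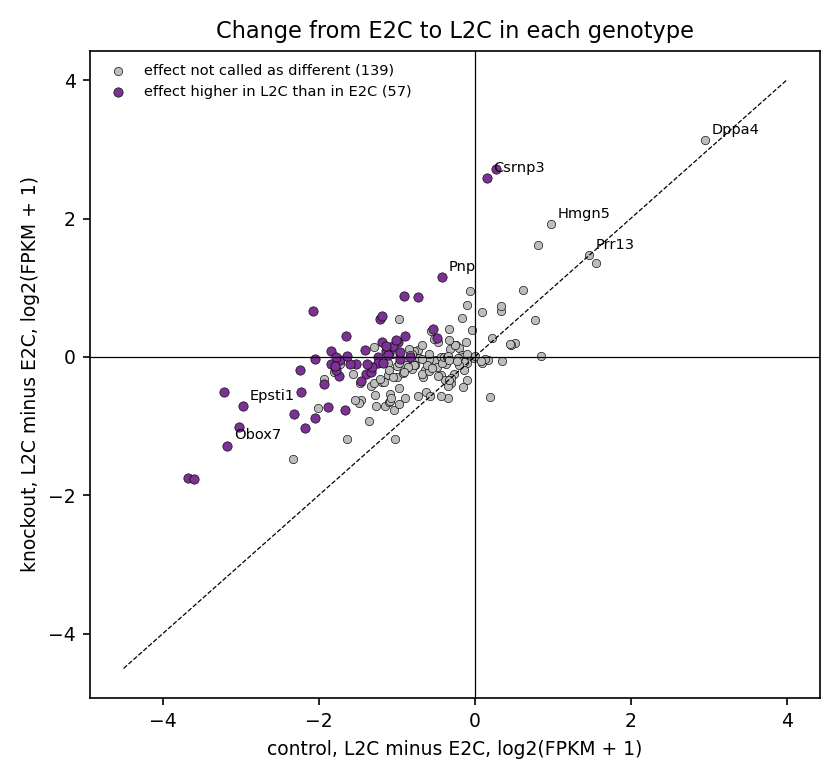
Change from E2C to L2C in control (x axis) and in knockout (y axis) for the 196 genes, on the log2(FPKM + 1) scale; purple points are the 57 whose knockout effect was higher in L2C by the interaction test, and the dashed line marks equal change. Most purple points lie left of 0 on the x axis and near 0 on the y axis, and Csrnp3 and Pnp lie high on the y axis.

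Of the 28 membrane receptors, adhesion and surface proteins, 18 were lower in E2C and 17 in L2C, and none was higher. Il23r encodes a subunit of the interleukin-23 receptor. Its control libraries held 6.44, 6.28 and 6.89 FPKM in E2C and its knockout libraries 0.159, 0.0359 and 0. In L2C the controls held 3.0 and 3.68 FPKM and the knockouts 0, 0.034 and 0.266. The groups stood far apart at both stages, with differences of -2.83 ± 0.17 (SE, adjusted p = 0.00285) and -1.98 ± 0.18 (adjusted p = 0.00305). Mrc1, the macrophage mannose receptor, gave 5.54, 5.03 and 5.28 FPKM in control E2C against 0.123, 0.192 and 0.155 in knockout E2C. In L2C it gave 3.19 and 2.69 FPKM against 0.213, 0.193 and 0.0068. Again no libraries overlapped, and the L2C difference was -1.79 ± 0.17 (adjusted p = 0.00313). Cdh2, the neural cadherin, kept 5.14, 5.39 and 5.06 FPKM in control E2C and had 0.571, 0.842 and 0 in the knockout. By L2C its control had fallen to 1.43 and 1.30 FPKM, with 0.131, 0.299 and 0.174 in the knockout (-0.98 ± 0.14, adjusted p = 0.00687). Egfr, the epidermal growth factor receptor, differed less. It had 22.0, 17.6 and 16.1 FPKM in control E2C against 6.51, 3.90 and 4.97, and 6.77 and 8.34 against 4.31, 3.45 and 3.33 in L2C (adjusted p = 0.0208, and 0.0300 to 0.119 with 1 library left out). Others of the group had knockout means near control in L2C only where the control had fallen below 1 FPKM, such as Cxcr3 and Slamf1. Cxcr3 went from a mean of 3.37 to 0.69 FPKM in control and from 2.17 to 0.64 in the knockout (91.6% of control in L2C). Slamf1 went from 3.75 to 0.71 FPKM in control and from 1.00 to 0.59 in the knockout (82.4%). At these levels a deficit could hardly be seen. Cdh2, Egfr, Cxcr3 and Slamf1, and the other genes named below as added, were chosen after their values were seen.

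Genes of signalling, membrane traffic, cytoskeleton and protein turnover had the largest shares of the 8 groups, which were not tested against each other, with 22 of 26 lower in E2C, 17 of 26 lower in L2C and a median L2C difference of -1.01. Ppp1r9a encodes neurabin, an actin-binding scaffold for protein phosphatase. It was 4.39, 3.76 and 4.23 FPKM in control E2C and 0.0823, 0.0296 and 0.667 in the knockout, then 4.65 and 3.70 FPKM in control L2C and 0.0483, 0.199 and 0.513 in the knockout. Its control changed by 0.01 between the stages (adjusted p = 0.98) and its deficit was -2.06 at both (L2C SE 0.22, adjusted p = 0.00409). Plek, which encodes pleckstrin and was added, had 9.70, 8.44 and 6.80 FPKM in control E2C against 0.190, 0.227 and 0.556, and 2.98 and 3.62 against 0.466, 0.160 and 0.435 in L2C. Its difference was -2.81 ± 0.22 in E2C and -1.67 ± 0.19 in L2C (adjusted p = 0.00500 and 0.00447). Nedd4l, a ubiquitin ligase of ion channels, was one of the most abundant of the 196 in control oocytes. It gave 42.6, 42.9 and 74.3 FPKM in control E2C against 16.9, 12.8 and 10.5, and 9.85 and 9.02 FPKM in control L2C against 3.65, 4.14 and 4.6. Both genotypes fell, and the knockout was still lower (-1.03 ± 0.15, adjusted p = 0.008), a call lost without L2C control replicate 1 (adjusted p = 0.0636) or control replicate 2 (0.0543).

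Enzymes and transporters divided. Of 24, 15 were lower in E2C, 8 were lower in L2C and 1 was higher. Lpl, the lipoprotein lipase, was added and stayed low. Its control libraries held 10.2, 9.18 and 9.15 FPKM in E2C and 3.96 and 4.87 in L2C, and its knockout libraries held 1.15, 0.770 and 0.637 and then 1.02, 0.658 and 0.743 (L2C -1.58 ± 0.19, adjusted p = 0.00523). Entpd1, an ectonucleotidase, had 4.49, 5.18 and 4.12 FPKM in control E2C against 0.0681, 0.384 and 0.473, and 1.41 and 1.83 against 0.0414, 0.183 and 0.0173 in L2C (-1.28 ± 0.15, adjusted p = 0.00474). For both genes the knockout libraries stayed under the controls while the control level fell. Akr1b8, an aldo-keto reductase with TATAAA in its window, was strongly depleted in FGO (13.3 and 11.9 against 1.16, 0.966 and 0.842 FPKM). By E2C the control had 3.02, 2.14 and 2.87 FPKM against 1.21, 1.24 and 0.786, which was not called (adjusted p = 0.0724). In L2C its mean was 2.13 FPKM in control and 0.38 in the knockout (17.9% of control). The difference was -1.08 there and -0.82 in E2C, and it was not called in L2C either. Aldh1a2, the retinaldehyde dehydrogenase, was added as a gene cleared in both genotypes. It went from 7.85, 7.35 and 5.52 FPKM in control E2C to 0.417 and 0.746 in control L2C, and from 2.50, 2.51 and 1.79 to 0.876, 0.945 and 0.673 in the knockout. Rgn, which encodes regucalcin, was not called at either stage (adjusted p = 0.0999 in E2C and 0.347 in L2C), with 4.12 and 2.89 FPKM in control L2C against 3.07, 1.99 and 2.74.

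**Figure D4:**
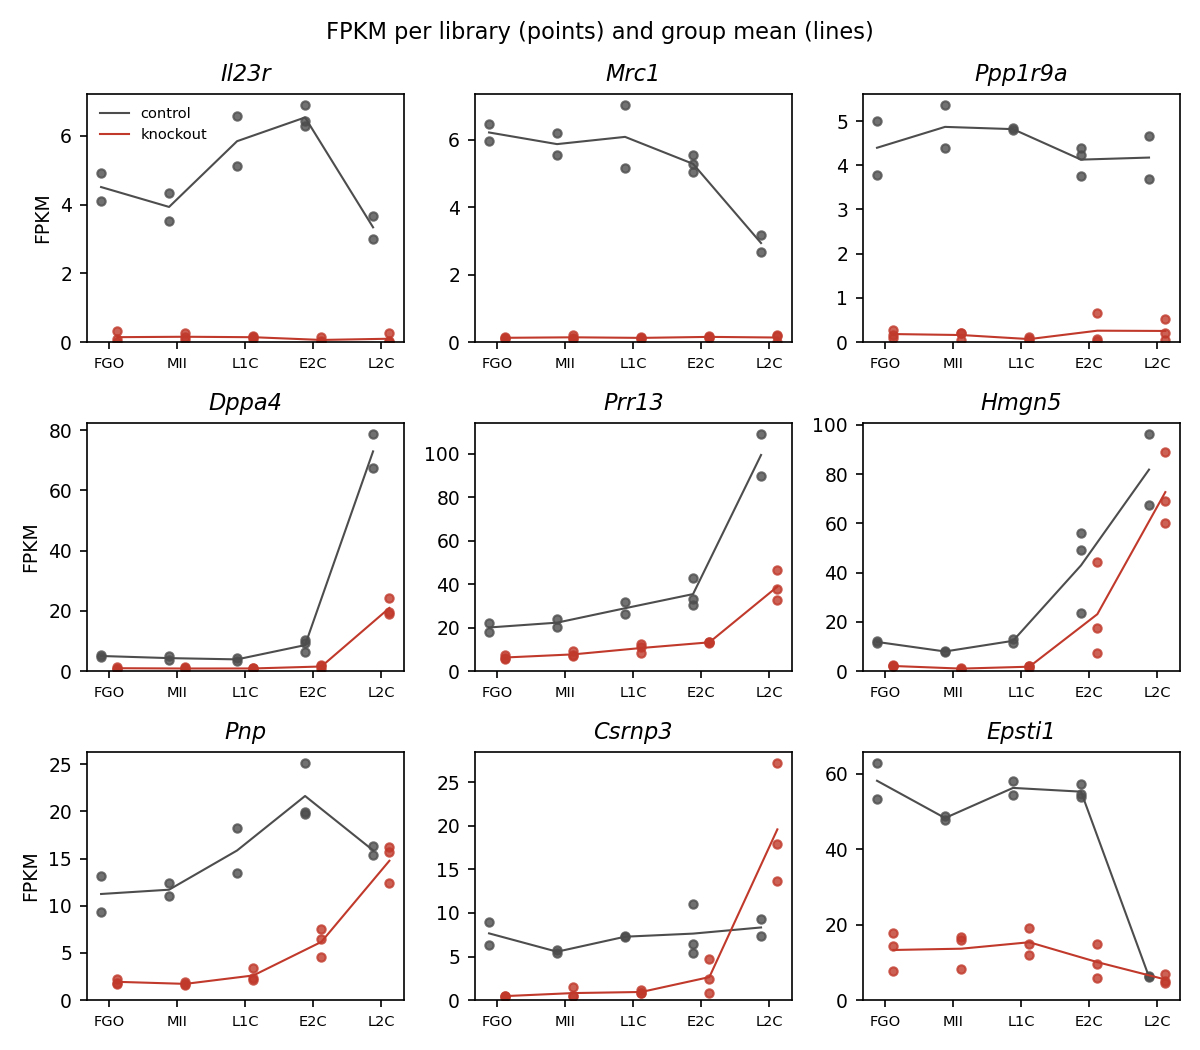
FPKM of 9 genes in each total RNA library (points) with the group mean (lines), by stage, control in grey and knockout in red; each panel has its own linear axis from 0. Il23r, Mrc1 and Ppp1r9a stay near 0 in the knockout, Dppa4 and Prr13 rise in both genotypes with the knockout lower, Hmgn5 and Pnp reach control levels in L2C, Csrnp3 passes them, and Epsti1 meets a control that has fallen.

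Of the 6 genes grouped as secreted proteins or inhibitors, 3 were lower in E2C and 1, Tafa2, in L2C. Tafa2, a secreted chemokine-like protein, had 4.27 and 3.72 FPKM in control L2C against 0.132, 0.341 and 0.131 in the knockout (-2.06 ± 0.17, adjusted p = 0.00269). Prxl2a, a peroxiredoxin-like protein, had 5.25 and 5.87 FPKM against 1.13, 1.09 and 0.825 (-1.70 ± 0.18, adjusted p = 0.00402). In neither did the libraries overlap, and both calls passed in all 5 fits that left out 1 library, as did those of Il23r, Mrc1, Cdh2, Ppp1r9a, Plek, Lpl, Entpd1 and Dppa4. In E2C fewer calls held. Those of Il23r, Mrc1, Plek, Lpl and Obox7 passed in all 6 fits that left out 1 library, that of Entpd1 in 4, those of Cdh2, Egfr, Epsti1 and Pnp in 2, and that of Ppp1r9a in 1. The E2C calls of Nedd4l, Tafa2, Prxl2a, Chst7 and Cdca7 passed in none of the 6.

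For Epsti1, Obox7, Fam90a1a and Serpinb1c the knockout effect moved toward 0 while the control RNA fell. Epsti1, an interferon-responsive gene, held 57.3, 54.7 and 53.9 FPKM in control E2C and 14.8, 5.98 and 9.48 in the knockout. In L2C it held 6.04 and 6.34 FPKM in control and 5.05, 6.84 and 4.57 in the knockout, so the libraries overlapped. Its effect rose by 2.26 ± 0.36 from E2C to L2C (interaction, adjusted p = 0.00263). Obox7 belongs to the oocyte-specific homeobox family, other members of which share sequence with it (21.1% of its exonic 50-base words, mostly with Obox5). It went from 70.6, 69.5 and 72.1 FPKM to 6.53 and 7.45 in control, and from 19.7, 13.6 and 18.2 to 7.19, 6.29 and 5.77 in the knockout (interaction 1.89 ± 0.21, adjusted p = 0.000598). Fam90a1a went from 45.9, 49.4 and 38.2 FPKM to 2.20 and 2.95 in control, and from 15.5, 18.5 and 17.6 to 4.92, 4.66 and 3.74 in the knockout (interaction 1.92 ± 0.23, adjusted p = 0.000652). Here the L2C knockout libraries all lay above the controls, but the difference was not called (0.61, adjusted p = 0.0729). Serpinb1c, a serpin, went from 14.6, 18.7 and 17.1 FPKM to 4.27 and 2.50 in control while the knockout had 5.42, 3.74 and 4.75 and then 6.21, 4.19 and 3.34 (interaction 2.01 ± 0.34, adjusted p = 0.00313). Fam161a, a centrosomal protein gene, fell in both genotypes and was not called in L2C (4.94 and 3.93 FPKM against 1.81, 1.44 and 3.57, adjusted p = 0.123).

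Knockout RNA rose from E2C to L2C for 19 genes: Brwd3, Cdc42ep3, Cdca7, Chst7, Csrnp3, Ctnnd1, Denn2b, Dppa4, Gcnt2, Gm11543, Gm11914, Gm13147, Gm44133, Hmgn5, Pnp, Prr13, Scel, Sh3bgrl and Trim35. Of these, 9 were still lower than control in L2C, 7 were not called and 3 were higher. Without L2C knockout replicate 3 the count was 11. Nuclear and RNA-binding proteins supplied 5 of them, from a group of 14. Of all genes tested 27.1% rose in the knockout, and the group was not tested against the others. Hmgn5, a nucleosome-binding protein gene, was at 12.4 and 11.3 FPKM in control FGO against 2.41, 1.93 and 1.97. In E2C its libraries overlapped, at 56.0, 49.3 and 23.5 FPKM in control and 17.5, 7.39 and 44.4 in the knockout. In L2C they stood at 67.4 and 96.1 against 60.1, 88.8 and 69.1 FPKM, and the knockout gained 1.92 ± 0.50 (adjusted p = 0.008). A share of 18.6% of the exonic words of Hmgn5 is found elsewhere, mostly in the pseudogene Gm11914, also among the 19. For Gm11914 the share is 76.6%, mostly with Hmgn5, so the reads of this pair may be split between them. Pnp, the purine nucleoside phosphorylase, had 20, 25.2 and 19.7 FPKM in control E2C against 6.43, 7.55 and 4.54. In L2C the controls had 15.4 and 16.3 and the knockouts 15.7, 12.4 and 16.2 FPKM, a gain of 1.15 ± 0.18 in the knockout (adjusted p = 0.00026) and no called difference from control (-0.11 ± 0.14). The exons of Pnp overlap another gene model on the same strand, with which 22% of its words are shared. Cdca7, a cell cycle gene linked to DNA methylation, went from 1.36, 1.79 and 1.33 to 4.24, 2.83 and 2.64 FPKM in the knockout, beside 4.19 and 4.43 in control L2C. Hmgn5, Pnp and Cdca7 were added. With libraries centred on their medians, the knockout gains of Hmgn5, Pnp, Dppa4, Prr13 and Csrnp3 kept their direction and their call, as for 11 of the 19, and 8 lost the call, among them Cdca7 (0.44, adjusted p = 0.109) and Ctnnd1 (0.10, adjusted p = 0.54).

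Dppa4 and Prr13 rose in both genotypes and stayed lower in the knockout. Dppa4 encodes a chromatin protein of early embryos and pluripotent cells. It stood at 6.29, 9.25 and 10.4 FPKM in control E2C against 2.08, 1.73 and 0.846, and at 78.6 and 67.3 FPKM in control L2C against 24.4, 18.8 and 19.7. The knockout rose by 3.13 ± 0.22 (adjusted p = 1.19e-06) and the control by 2.96, and the deficit did not change detectably, at -1.93 in E2C and -1.76 ± 0.14 in L2C (interaction 0.17 ± 0.33, adjusted p = 0.78). Its E2C call was lost with any 1 of the 6 libraries left out (adjusted p 0.0595 to 0.0884). A share of 31.3% of its exonic words is also in Gm14058. Prr13, a proline-rich protein gene, had 42.7, 33.0 and 30.6 FPKM in control E2C against 12.9, 13.3 and 13.5, and 109 and 89.6 in control L2C against 46.3, 32.6 and 37.7. Its deficit was -1.34 at both stages (L2C SE 0.17, adjusted p = 0.00546, and 0.051 without L2C control replicate 1).

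Higher levels in knockout L2C were found for 4 genes. Csrnp3, a nuclear protein gene, was at 6.33 and 8.99 FPKM in control FGO against 0.504, 0.402 and 0.496, and in E2C at 6.49, 11.1 and 5.36 against 4.67, 2.40 and 0.864. In L2C the controls held 7.34 and 9.34 FPKM and the knockouts 27.2, 17.9 and 13.7, so the order of the groups had turned (1.10 ± 0.29, adjusted p = 0.0402, and interaction 2.43 ± 0.57, adjusted p = 0.0155). The L2C call was lost without control replicate 1 (adjusted p = 0.205), control replicate 2 (0.128) or knockout replicate 2 (0.105). Chst7, a sulfotransferase, had 0.494 and 0.412 FPKM in control L2C against 0.958, 1.6 and 1.5 (0.68 ± 0.19, adjusted p = 0.0452, and 0.0325 to 0.172 with 1 library left out). The remaining 2 share sequence with related genes, so their reads may be split between copies. Zscan4-ps1 (48.4% of words shared) had 3.81 and 4.35 FPKM in control L2C against 15.1, 9.06 and 11.8 (1.33 ± 0.22, adjusted p = 0.0108, and 0.0210 to 0.0796 with 1 library left out). The pseudogene Gm11543 (24.3% shared), a predicted model named after its values were seen, had 46.6 and 34.6 FPKM against 148, 103 and 122.

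Some of the genes lie side by side. With a gap of at most 200 kb between neighbours, 3 groups of 3 or more were found after the genes were known. On chromosome 6, 10 of the 13 genes tested between positions 130483189 and 131182379 (GRCm38, GENCODE M21) are among the 196, all of them predicted pseudogenes, and the other 3 also had lower knockout means in FGO, MII and L1C. In E2C 11 of the 13 were lower, and 6 in L2C. Gm38706, an unprocessed pseudogene, had the strongest deficit in L2C, with 37.1 and 48.7 FPKM in control against 2.39, 2.76 and 3.10 (-3.54 ± 0.17, adjusted p = 0.00216). Its neighbour Gm33962 went from 76.2, 93.1 and 57.0 FPKM in control E2C to 3.93 and 6.74 in control L2C, where the knockout libraries (5.71, 6.08 and 4.81 FPKM) overlapped it. Neighbours in this stretch share exonic words, 38.2% in the case of Gm44527, so their counts are not independent. On chromosome 1, between 117603878 and 118202307, 5 of 9 genes tested are members. Of the other 4, 2 had lower knockout means in FGO, MII and L1C, while Gm28169 and Gm29490 had higher ones in FGO and L1C. Among the 5 members, 2 are annotated as Zfp813-ps. The first (ENSMUSG00000101373.2) had 47.1, 51.4 and 40.2 FPKM in control E2C against 3.95, 5.61 and 4.22, and 3.81 and 5.97 against 1.42, 2.41 and 1.51 in L2C (-1.08 ± 0.27, adjusted p = 0.0334). The second (ENSMUSG00000107979.1) fell from 19.8, 29.4 and 25.4 FPKM to 1.58 and 1.94 in control, and the knockout had 2.24, 0 and 1.25 in L2C. On chromosome X, between 108737016 and 109197873, Brwd3, 2810403D21Rik, Hmgn5 and Sh3bgrl are 4 of 5 genes tested. Knockout RNA of Brwd3, Hmgn5 and Sh3bgrl rose from E2C to L2C, and Brwd3 (23.6 and 22.9 against 9.02, 9.04 and 10.6 FPKM) and Sh3bgrl (5.92 and 6.97 against 0.983, 1.94 and 2.02 FPKM) remained lower.

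**Figure D5:**
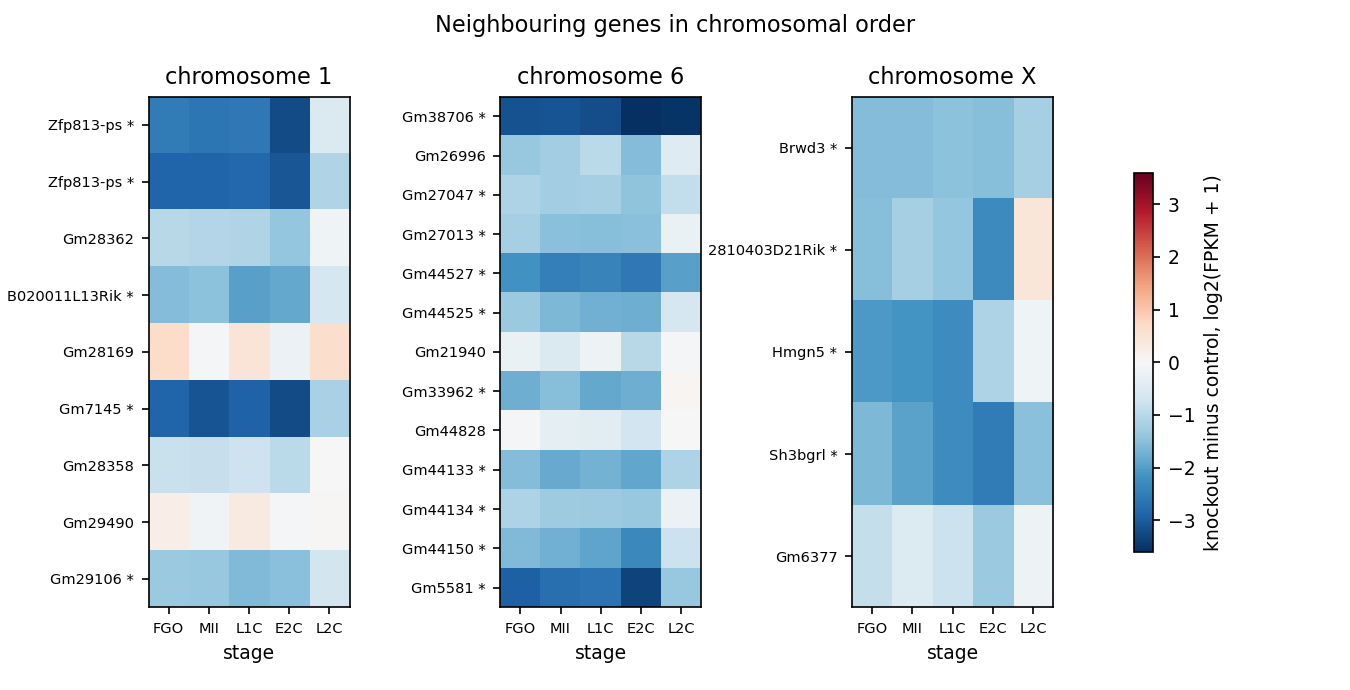
Knockout minus control on the log2(FPKM + 1) scale (colour, blue lower in the knockout) for all genes tested in the 3 groups of neighbours, in chromosomal order from top to bottom, by stage; an asterisk marks the 19 members. The columns FGO to E2C are blue for all members, and the L2C column is paler for most of them, while Gm38706 has -3.59 in E2C and -3.54 in L2C.

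Of 40 long non-coding RNAs, 19 were lower in E2C and 15 in L2C, none rose in the knockout between the stages, and 19 had a control mean under 1 FPKM in L2C. Of 22 pseudogenes, 14 were lower in E2C, 9 were lower and 1 was higher in L2C, and 16 fell in control embryos between the stages. In all, 27 of the 196 genes share over 20% of their exonic 50-base words with another gene, 34 have exons overlapping a gene on the other strand and 7 a gene on the same strand. Whether counting used the strand is not given in the sources used here, and the level of these genes is uncertain to that extent. Among the 136 genes with none of these features, 80 were lower in E2C and 57 in L2C, 1 was higher in L2C, and the effect was higher in L2C than in E2C for 35.

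By embryonic day 6.5 no deficit was detected. Of the 196 genes 74 were abundant enough to be tested in epiblast and visceral endoderm, and none was called in either lineage or direction (at an unadjusted p under 0.05, none lower and 2 higher in each lineage). Among all 13376 genes tested, 0 were called in epiblast in either direction, and in visceral endoderm 1 was lower (0.00748%) and 0 were higher, with 2 libraries a group. At an unadjusted p under 0.05 the numbers over all genes were 306 and 170. Group means reached 1 FPKM for 59 genes in control and 67 in knockout epiblast, 53 and 52 in visceral endoderm, and 50 and 55 in extraembryonic ectoderm, where the single control allowed no test. Dppa4, Pnp and Prr13 were expressed here in both genotypes. Dppa4 had 44.9 and 79.0 FPKM in control epiblast and 106 and 195 in the knockout (1.26 ± 0.47, not called, adjusted p = 1). Pnp had 47.2 and 55.2 FPKM in control epiblast against 37.3 and 43.1, and Prr13 had 41.1 and 39.7 against 34.1 and 29.1. Il23r was at 0 FPKM in 10 of the 11 libraries and at 0.104 in the other, a knockout epiblast library, so its return could not be judged.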

How the data were processed

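RNA was measured in 26 total RNA libraries of oocytes and early embryos and 11 poly(A) libraries of embryonic day 6.5. The deposited values are FPKM, per the file headers and names. Trim Galore 0.6.6, STAR 2.7.9, StringTie 2.1.7 and build mm10 are named, with no role, per the submitters' processing notes. The annotation and strand setting are not given in the sources used here. Total RNA libraries used a stranded kit, per the labels' protocols. In the deposited column of control epiblast replicate 1, 1 gene lies just below 0 and was set to 0. No mapped per-sample column was left unused, and the study's chromatin profiles were not analysed here.

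Values were taken as log2(FPKM + 1) from the deposited FPKM. A fold change on this scale understates the change of low genes. Genes reaching 1 FPKM in 2 or more of the libraries were tested with limma 3.58.1 (R 4.3.3; linear model, empirical Bayes with intensity trend), with Benjamini-Hochberg adjustment over all genes tested and a threshold of 0.05. E2C and L2C were fitted alone because their spread differed (median SD within groups 0.258 and 0.206 on the log2 scale, against 0.111 to 0.131 in FGO, MII and L1C). The interaction and the changes from E2C to L2C came from a fit of both stages, and epiblast and visceral endoderm were fitted together. Adjusted p-values in the text are from these limma fits, and the fitting steps were tested on simulated data. Replicate numbers were not used for pairing.

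The genes and gene lists were chosen with earlier results of these data known. Genes left out by name were Bap1, Fam217a, Pdzph1, Prlr, Nckap5, Lcp2, Cyp19a1, Gata3, Fgf10 and a numbered range of Zfp genes. Product groups, promoter classes and groups of neighbours were made after values were seen. Named genes, predicted models left out, were the 8 with the highest control level, the 6 lowest in L2C among those called without overlap, the 6 with the largest interaction, those higher in E2C or L2C, the 4 with the lowest mean effect over FGO, MII and L1C, those next to the limit, and any called at embryonic day 6.5. Others were added after their values were seen. Shared sequence was measured as the share of a gene's exonic 50-base words found in exons of another gene of GENCODE M21. Alternatives were another pseudocount, other filters, TPM scaling, centring, no trend, a replicate block, a shared fit, leaving out each library and, chosen after seeing the data, leaving out genes with shared or overlapping exons.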

Additional observations from a re-analysis of the deposited data

Results flagged for a closer look

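The knockout effect was higher in L2C than in E2C for 57 of the 196 genes by a test of the difference itself (limma, interaction of genotype and stage, adjusted p under 0.05). Among the named genes the difference between the effects, on the log2 scale, was 2.71 and 2.01 for the 2 genes annotated as Zfp813-ps, 2.43 for Csrnp3, 2.26 for Epsti1, 2.01 for Serpinb1c, 1.92 for Fam90a1a, 1.89 for Obox7, 1.79 for Chst7 and 1.16 for Zc4h2, which encodes a zinc finger protein. For Csrnp3 the knockout rose from E2C to L2C, for Chst7 the knockout rose and the control fell, and for the other named genes here the control fell and the knockout did not rise. These differences are on the log2(FPKM + 1) scale, on which a falling control shrinks a deficit also where the ratio is kept.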

How the results depend on the processing

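In E2C the count of lower genes (121) was 21 with no filter on low values, 49 of the 59 tested with a minimum mean of 5 FPKM, 80 among the 136 genes with no shared or overlapping exons, and 30 to 56 with 1 library left out (32, 30 and 45 without control replicates 1 to 3, and 56, 55 and 44 without knockout replicates 1 to 3). In L2C the count of lower genes (86) was 31, 22 of 35 tested, 57 and 46 to 67 under the same settings, and that of higher genes (4) was 0 with no filter, 7 in a shared fit of all 26 libraries, 1 among the 136, and 1 to 5 with 1 library left out (1 without either control replicate, 2 without knockout replicate 2). The count of genes whose effect was higher in L2C than in E2C (57) was 32 with a pseudocount of 0.1, 27 with no filter, 27 of 53 tested with the 5 FPKM minimum, 93 in the shared fit, 35 among the 136 and 31 to 54 with 1 library left out, and the opposite was found for 2 genes without trend and 2 in the shared fit. With the 5 FPKM minimum, 37 of 53 genes fell and 3 rose in control, and 16 fell and 12 rose in the knockout. With no filter, 15 fell and 12 rose in the knockout. Among the 136, 2 rose in control and 5 in the knockout. With 1 library left out, 90 to 114 fell and 4 to 6 rose in control, and 17 to 30 fell and 11 to 20 rose in the knockout. The split in the knockout (25 fell, 19 rose) was 33 and 16 with TPM scaling and 53 and 11 with centring. The rule itself would choose 798 genes with a pseudocount of 0.1, 474 after TPM scaling, 162 with centring and 64 with a limit of -1.5. Over all genes, TPM scaling moved the L2C split from 2247 lower and 2127 higher to 1688 and 2686 and the median difference from 0.03 to 0.16, and the E2C split from 466 and 278 to 391 and 415 (486 and 606 with centring). Signs turned for 4 differences that were not called: Iqcf5 in L2C (-0.62 to 0.65 with 1 library left out, and negative without control replicate 1 or knockout replicate 2), Zc4h2 in L2C (-0.0484 to 0.0795, negative without control replicate 2 or knockout replicate 1), Zscan4-ps1 in E2C (-0.5953 to 0.3579, positive without knockout replicate 2) and Obox7 in L2C (0.0168 with TPM scaling). The cause of these changes was not tested. Same-numbered control and knockout libraries had correlations of deviations of 0.043, 0.041 and -0.077 in E2C and 0.036 and 0.02 in L2C, so the numbers were not shown to pair the samples there. In epiblast and visceral endoderm the correlations were 0.593 and 0.429, each from 2 pairs only, too few to show pairing. With the replicate block, 0 genes were lower in E2C, 0 were lower and 0 were higher in L2C, the effect was higher in L2C for 27, and in the knockout 10 fell and 6 rose. In epiblast the block raised the genes at an unadjusted p under 0.05 from 306 to 1301 and called 2 lower and 2 higher, none of them among the 196. Depth is unknown, and low FPKM values limit what can be seen where the control is under 1 FPKM.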
